A study of Mus musculus with 2 samples.

Results

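Immediate early genes are transcribed within minutes of a stimulus such as serum, a growth factor or tissue injury, from promoters on which the transcription factors are already present. Many of their products are transcription factors themselves. FOS and JUN proteins pair through leucine zippers into AP-1, which binds DNA and drives a later wave of genes. Other products, such as the phosphatases of the DUSP family, shut the signal off again. In skeletal muscle, FOS and JUN transcripts are known to appear in satellite cells, the stem cells on the muscle fibre, when these are activated or when the tissue is dissociated by enzymes.

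The 35 genes described here are the Fos and Jun families and other well known early response genes. They were chosen by symbol, and all 35 were found among the 23235 symbols of the deposited expression table. The series was made to find targets of PAX7, a paired-box factor that marks satellite cells, and compared neonatal mice labelled WT and Pax7 KO. The protocol, which is the same text for both libraries, names Pax7CreER/+ and Pax7flox/flox mice and a deletion induced at day 5 with 75 µg of tamoxifen per g of body weight, injected on 5 days in a row. The Cre is made by cells that express Pax7. The sources used here do not say whether WT animals carried either allele or received tamoxifen, nor how many animals stood behind a library. Both cultures came from pronase-digested limb and back muscle, enriched by sedimentation with no sort named, and grew on Matrigel with serum and bFGF, which are themselves inducers of immediate early genes. PolyA RNA was sequenced.

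There was 1 library per genotype. Every difference below is therefore one between 2 libraries, without a replicate check, and no test between the genotypes was possible. Levels are FPKM, fragments per kilobase of transcript, scaled to the depth of the library, which allow genes of different length to be compared. The log2 ratio of a gene is the log2 of its KO over its WT value, with 1 FPKM added to each. A gene was called when its log2 ratio reached 1 in size, that is 2-fold. Most genes had higher values in KO: of the 11751 genes with a mean FPKM of 1 or more, 88.6% had a log2 ratio above 0, and the median gene stood at 0.42. Ratios are therefore also given relative to the median gene, after subtracting 0.42. Counting intervals are 95% exact (Clopper-Pearson) intervals on the log2 of the KO to WT ratio of FPKM without a pseudocount. On that scale the median gene stood at 0.50, and the intervals are compared with this value. These intervals rest on depths that were estimated from the values (25150000 fragments in WT and 21150000 in KO, a loose estimate), and cover counting error only.

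Pax7 itself was at 3.21 FPKM in the WT library and 0.769 FPKM in the KO library, the direction of its label, and Gapdh, a glycolytic enzyme gene, had a log2 ratio of 0.23. Of the 8 markers of skeletal muscle progenitors, 8 were lower in KO, while 88.6% of all genes tested were higher. Their summed level was 264 FPKM in the WT library and 142 FPKM in the KO library. Markers of other cells were present in both libraries. The summed level of 8 endothelial markers was 377 FPKM in the WT library and 741 FPKM in the KO library, that of 8 fibroblast markers 172 and 270 FPKM, that of 8 smooth muscle and pericyte markers 875 and 963 FPKM, and that of 7 adipocyte markers 217 and 1117 FPKM. The remaining cell types are given with the pathway lists. In such mixed RNA, fewer cells of a type and less RNA per cell cannot be told apart.

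The immediate early and AP-1 genes were expressed in both libraries, and 33 of the 35 had a higher FPKM in the KO library, beside 88.6% of all genes tested. Their median log2 ratio was 0.63, against 0.42 for all genes tested. Of the 35, 4 were at least 2-fold higher in KO, the AP-1 subunits Fosb and Jund and the feedback regulators Dusp1 and Btg2, and none was 2-fold lower. Of all genes tested, 5.06% passed this limit upwards and 0.689% downwards, and the 4 members were 11.4% of the 35. Relative to the median gene the members had a median of 0.21, and none reached 2-fold in either direction, while 1.35% of all genes were 2-fold higher and 1.45% lower. Most members are well expressed, and genes with a mean FPKM of 5 or more had a median log2 ratio of 0.47, which is nearer to that of the members. Without a pseudocount 6 members were at least 2-fold higher, with Atf3 and Arc added, beside 9.93% of all genes, and none lower, beside 0.703%. Relative to the median gene on that scale none was called, beside 2.31% higher and 2.6% lower among all genes. With a limit of 1.5-fold, 19 members were higher, beside 30% of all genes, and none lower, beside 1.43%. The authors' deposited table of higher genes holds 3 of the members, Fosb, Dusp1 and Btg2, and 5.2% of the genes tested here. Their table of lower genes holds none of the members and 2.49% of the genes tested. Jund, with a log2 ratio of 1.03, is in neither table.

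**Figure D1:**
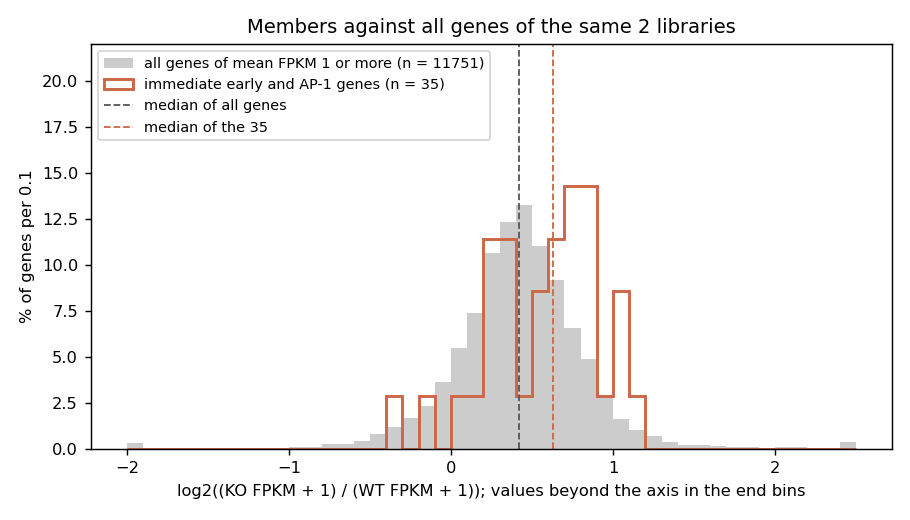
Share of genes (y axis, percent per bin of 0.1) by log2 ratio of KO to WT (x axis) for the 11751 genes with a mean FPKM of 1 or more (grey) and the 35 immediate early and AP-1 genes (orange line), with their medians dashed. The median of the members lies at 0.63 and that of all genes at 0.42, and the range of the members, -0.34 to 1.11, lies inside that of all genes.

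Relative to the median gene, 22 of the 35 members lay above it and 13 below, where 50% of all genes lie above by construction. The members were spread widely around it. Of the 35, 16 lay above the upper quartile of all genes (0.64), 15 between the quartiles and 4 below the lower quartile (0.21). Counting error was smaller than this spread for most of them. Set against the median gene without a pseudocount, 0.50, the counting interval lay wholly above it in 21 members, wholly below it in 8 and across it in 6. Such intervals were not computed for all genes, so no share of all genes stands beside these counts. They are narrow wherever many fragments lie behind a gene. Subtracting the median gene took 11 members, 31.4% of the 35, from above 0 to below it, and it did the same to 38.6% of all genes.

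**Figure D2:**
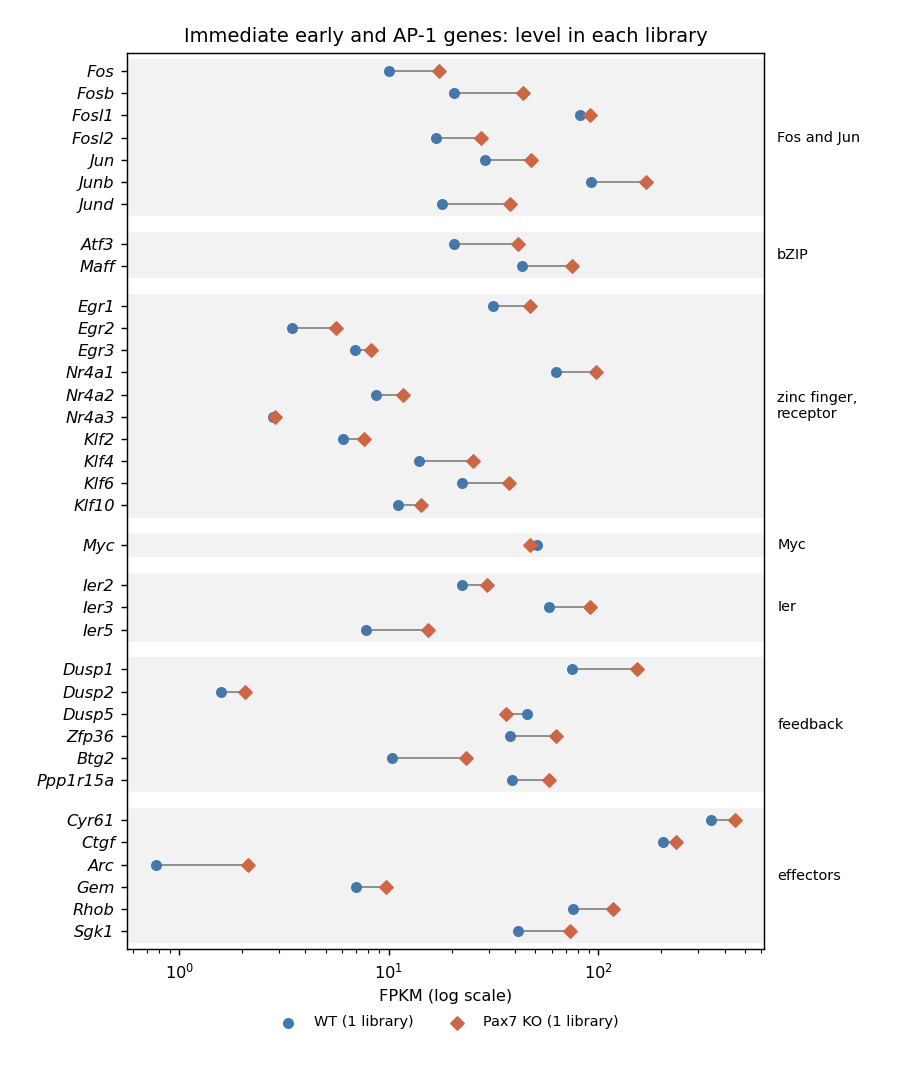
FPKM (x axis, log scale) of each of the 35 genes (y axis, grouped by role) in the WT library (blue circles) and the Pax7 KO library (orange diamonds), joined by a line. The KO value is to the right of the WT value in all but Myc and Dusp5; the levels run from 0.778 FPKM (Arc, WT) to 451 FPKM (Cyr61, KO).

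Cyr61 and Ctgf were the most abundant, followed in WT by Junb, Fosl1, Rhob and Dusp1, and in KO by Junb, Dusp1 and Rhob. At the other end stood Arc, Dusp2, Nr4a3 and Egr2, which were under 6 FPKM in both libraries. In 31 of the 35 genes both libraries were at 5 FPKM or more. An estimated median of 1947 fragments in WT and 2181 in KO lay behind a member. Myc was 9th in level in WT and 14th in KO, and Dusp5 10th and 20th, the largest shifts of rank.

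AP-1 dimers are built from the Fos family (Fos, Fosb, Fosl1, Fosl2) and the Jun family (Jun, Junb, Jund). All 7 had a higher FPKM in the KO library, with a median log2 ratio of 0.74, or 0.32 relative to the median gene, and 6 of the 7 lay above the median gene. Fosb and Jund were the 2 past 2-fold, beside 5.06% of all genes tested, and neither was past it relative to the median gene.

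Fosb (chromosome 7, 19888045 to 19895394, mm9), which encodes a FOS protein that persists longer than FOS in its truncated form, was at 20.5 FPKM in the WT library and 43.5 FPKM in the KO library. Its FPKM was 2.13-fold higher in KO, with a log2 ratio of 1.05, or 0.63 relative to the median gene, and a counting interval of 1.01 to 1.17. Fos (chromosome 12, 86814851 to 86818219), the prototype of the family, was at 10.0 FPKM in the WT library and 17.4 FPKM in the KO library, a log2 ratio of 0.74. Fosl2, which encodes FRA-2, was at 16.8 and 27.5 FPKM, a log2 ratio of 0.68. These 3 genes were thus all above the median gene, by 0.26 to 0.63. Fosl1, which encodes FRA-1, a FOS protein of proliferating cells without a transactivation domain, differed from them. It was at 81.6 FPKM in the WT library and 90.9 FPKM in the KO library, a log2 ratio of 0.15, or -0.27 relative to the median gene, and the direction therefore depends on the scaling. The row of Fosl1 shares a locus with Ccdc85b, and the sum of both rows, at 86.9 and 99.3 FPKM, had a log2 ratio of 0.19.

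Within the Fos family, Fosl1 had the highest level in both libraries, and its share was smaller in KO. It made up 63.3% of the family's summed FPKM in the WT library and 50.7% in KO, while Fosb made up 15.9% in WT and 24.3% in KO. Fos accounted for 7.79% and 9.70%, and Fosl2 for 13.0% and 15.3%. With Fosl1 left out of the sum, only the share of Fosb was larger in KO, at 43.3% and 49.2%. Fos then made up 21.2% in WT and 19.7% in KO, and Fosl2 35.5% and 31.1%. Such shares within a library need no scaling between the libraries. The summed FPKM of the family was 129 in WT and 179 in KO.

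The Jun family, whose members can pair with each other as well as with FOS proteins, had nearly the same make-up in both libraries. Junb (chromosome 8, 87500808 to 87502647), a JUN protein that is a weaker activator than JUN at many sites, was at 92.7 FPKM in the WT library and 168 FPKM in the KO library, a log2 ratio of 0.85, with a counting interval of 0.80 to 0.91. It made up 66.4% of the family's summed FPKM in the WT library and 66.2% in KO. Jun, the founding member, was at 28.8 and 47.9 FPKM, a log2 ratio of 0.71, and held 20.6% and 18.9% of the family. Jund (chromosome 8, 73221638 to 73224515), which is expressed in resting cells too and is less dependent on stimulation, was at 18.0 FPKM in the WT library and 37.8 FPKM in the KO library. This is a log2 ratio of 1.03 (0.61 above the median gene), with a counting interval of 0.94 to 1.20. The 3 Jun genes were therefore all higher than the median gene, and the largest shift of a share among them was 1.98 percentage points.

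**Figure D3:**
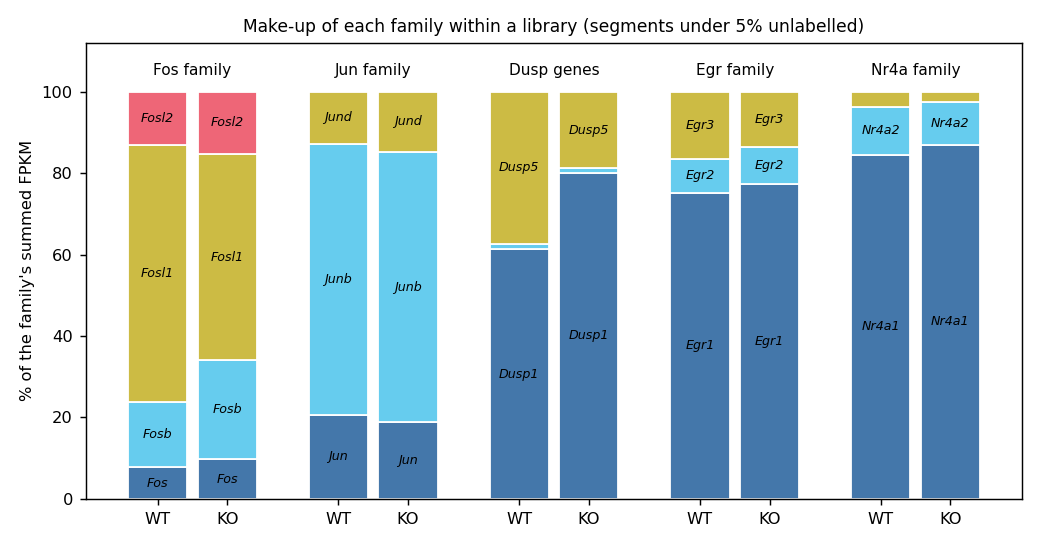
Share of each gene (y axis, percent) in the summed FPKM of its family, in the WT and the KO library, for the Fos, Jun, Dusp, Egr and Nr4a genes. Only the family genes among the members are summed. Fosl1 goes from 63.3% to 50.7% of the Fos family and Dusp5 from 37.4% to 18.9% of Dusp1, Dusp2 and Dusp5 together. Junb stays at 66.4% and 66.2% of the Jun family.

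Atf3 and Maff encode further leucine zipper proteins of the early response. ATF3, which is induced by stress and can act as a repressor, pairs with JUN proteins, and MAFF is a small MAF protein that lacks a transactivation domain. Atf3 was at 20.4 FPKM in the WT library and 41.3 FPKM in the KO library, 2.03-fold higher in FPKM. With the pseudocount its log2 ratio was 0.98, just short of the 2-fold limit, while Dusp1 stood just past it at 1.02. Maff was at 43.0 and 74.5 FPKM, a log2 ratio of 0.78. Both lay above the median gene, by 0.56 and 0.36.

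Of the 16 other genes of leucine zipper partners (BATF, JDP2, ATF and MAF proteins), 11 had a mean FPKM of 1 or more, and none of these was 2-fold higher or lower. Their median log2 ratio was 0.36 (-0.06 once the median gene was subtracted). The highest were Atf5, a stress-linked ATF gene whose row shares its locus with 4 other rows, at 73.7 and 139 FPKM, and Mafk, another small MAF gene, at 30.6 and 56.3 FPKM. The lowest were Jdp2, a repressor that pairs with JUN, at 26.8 and 28.5 FPKM, and Atf7, at 2.76 and 2.29 FPKM.

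The 10 zinc finger and nuclear receptor genes of the early response were all higher in KO as deposited, beside 88.6% of all genes tested. They divided around the median gene, with 5 above and 5 below it. Their median log2 ratio was 0.48 (0.06 once the median gene was subtracted), and none was past 2-fold. EGR proteins are zinc finger factors induced through serum response elements. Egr1 was at 31.4 FPKM in the WT library and 47.0 FPKM in the KO library, a log2 ratio of 0.57. Egr2, best known from Schwann cells, was at 3.46 and 5.57 FPKM, a log2 ratio of 0.56. Egr3, which has a role in muscle spindles, was at 6.89 and 8.26 FPKM, a log2 ratio of 0.23. Egr1 and Egr2 were thus above the median gene by 0.15 and 0.14, and Egr3 was below it by -0.19. The counting interval of Egr2, 0.45 to 0.92, reached across the median gene, which stood at 0.50 without a pseudocount. Egr2 is expressed in Schwann cells. Of 4 Schwann and glial markers 4 were higher in KO, beside 88.6% of all genes tested. These 4 had a median log2 ratio of 0.49, but of only 0.07 once the median gene was subtracted. Their summed level was 62.3 FPKM in the WT library and 89.0 FPKM in the KO library. Sox10, their defining factor, was at 12.5 and 17.4 FPKM, and the part of such cells in the Egr2 value was not tested.

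The Nr4a genes encode orphan nuclear receptors whose activity follows their level. Nr4a1 was at 62.7 FPKM in the WT library and 97.6 FPKM in the KO library, a log2 ratio of 0.63, and it made up 84.5% of the 3 genes' summed FPKM in the WT library and 87.0% in KO. Nr4a2 was at 8.69 and 11.7 FPKM, a log2 ratio of 0.39. Nr4a3 was at 2.81 and 2.88 FPKM, a log2 ratio of 0.03, the smallest in size of the 35. Its counting interval, -0.18 to 0.25, spanned 0. The 3 receptors therefore differed among themselves, from 0.21 above to 0.40 below the median gene.

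The Klf genes encode zinc finger factors of the Krüppel type. Klf4, a factor of epithelial, vascular and stem cells, was at 13.9 FPKM in the WT library and 25.3 FPKM in the KO library, a log2 ratio of 0.82. Klf6 was at 22.4 and 37.3 FPKM, a log2 ratio of 0.71. Both were above the median gene, by 0.40 and 0.29. Klf10, a TGF-beta induced gene, was at 11.1 and 14.2 FPKM, a log2 ratio of 0.34. Klf2, the flow-responsive factor of endothelium, was at 6.06 FPKM in the WT library and 7.60 FPKM in the KO library, a log2 ratio of 0.28, or -0.14 relative to the median gene. The 8 endothelial markers were 8 of 8 higher in KO, beside 88.6% of all genes tested. They had a median log2 ratio of 0.81, with Cdh5 at 103 and 170 FPKM. Klf2 had a smaller ratio than every one of these markers, the lowest of which was 0.71. Their part in the Klf2 and Klf4 values was not tested. Without Klf2 and Klf4 the remaining 33 members had the same median, 0.63, and the same number past 2-fold, 4.

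Myc (chromosome 15, 61816896 to 61821916), the growth-promoting helix-loop-helix factor that serum induces early, was 1 of the 2 members with a lower FPKM in the KO library. It was at 51.0 FPKM in the WT library and 47.3 FPKM in the KO library, a log2 ratio of -0.11, with a counting interval of -0.19 to -0.03. Relative to the median gene it was at -0.53. The ratio of Junb to Myc, which needs no scaling, was 1.82 in WT and 3.55 in KO. Because Junb was higher and Myc lower in KO, a larger ratio in KO follows from the choice of this pair.

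The Ier genes encode short early response proteins. Ier5, which takes part in the heat shock response, was at 7.80 FPKM in the WT library and 15.4 FPKM in the KO library, a log2 ratio of 0.90. Ier3, an anti-apoptotic gene also known as Iex-1, was at 58.3 and 91.2 FPKM, a log2 ratio of 0.64. Ier2 was at 22.4 and 29.5 FPKM, a log2 ratio of 0.38. Ier5 and Ier3 lay above the median gene, by 0.48 and 0.21, and Ier2 lay at -0.04.

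The 6 feedback regulators held both the highest and the lowest log2 ratio of the 35. Btg2 and Dusp1 were past 2-fold, Zfp36 and Ppp1r15a were above the median gene, Dusp2 was low in both libraries, and Dusp5 was lower in KO. Their median log2 ratio was 0.64 (0.22 once the median gene was subtracted).

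Btg2 (chromosome 1, 135971442 to 135975732), an antiproliferative gene that is also a p53 target, was at 10.3 FPKM in the WT library and 23.5 FPKM in the KO library. It was 2.27-fold higher in FPKM, with a log2 ratio of 1.11, 0.69 relative to the median gene, and a counting interval of 1.05 to 1.32. Dusp1 (chromosome 17, 26642536 to 26645417), the nuclear phosphatase that inactivates p38, JNK and ERK, was at 75.1 FPKM in the WT library and 153 FPKM in the KO library, 2.04-fold higher, with a log2 ratio of 1.02 and a counting interval of 0.97 to 1.08. Zfp36, which encodes tristetraprolin, a protein that speeds the decay of AU-rich mRNAs, was at 38.0 and 62.9 FPKM, a log2 ratio of 0.71. Ppp1r15a, which encodes GADD34, the subunit that reverses eIF2alpha phosphorylation, was at 38.9 and 58.4 FPKM, a log2 ratio of 0.57. Dusp2, a phosphatase best known from leukocytes, was at 1.58 and 2.06 FPKM, and its counting interval, -0.11 to 0.91, spanned 0. Of 7 macrophage and leukocyte markers, 3 had a mean FPKM of 1 or more. All 3 were higher in KO as deposited, beside 88.6% of all genes tested. Lyz2 was at 7.93 and 13.0 FPKM, Cd68 at 8.22 and 10.5 FPKM and Cd14 at 1.29 and 2.05 FPKM. Of these 3, 1 lay above the median gene and 2 below it. Ptprc, the defining gene of leukocytes, was under 1 FPKM in both libraries, at 0.318 and 0.226 FPKM. Also under 1 FPKM, Csf1r was at 0.488 and 0.379 FPKM, Emr1 at 0.331 and 0.156 FPKM and Itgam at 0.449 and 0.570 FPKM. Of these low markers, only Itgam was higher in KO.

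Dusp5 (chromosome 19, 53603808 to 53615812), a nuclear phosphatase specific to ERK and itself induced by ERK, had the lowest log2 ratio of the 35. It was at 45.8 FPKM in the WT library and 36.1 FPKM in the KO library, a log2 ratio of -0.34, or -0.76 relative to the median gene, with a counting interval of -0.43 to -0.26. Of all genes tested, 3.34% had a lower ratio. Dusp1 and Dusp5 thus stood further apart in KO: the ratio of Dusp1 to Dusp5 was 1.64 in WT and 4.24 in KO, 2.59 times larger in KO. No scaling enters this comparison. The pair sets a member past 2-fold against the lowest of the 35, so a large difference is built into it. Of the summed FPKM of the 3 Dusp genes, Dusp1 made up 61.3% in WT and 80.0% in KO, and Dusp5 37.4% and 18.9%.

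Sequence upstream of Btg2, which had the highest log2 ratio, of Dusp1, which was past 2-fold, and of Dusp5, which had the lowest, is shown. The other stretches were picked for their motif matches. RefSeq start sites on GRCm38.p6 were found for 26 of the 35 genes; Arc, Ctgf, Egr1, Egr3, Fosl1, Gem, Ier2, Klf10 and Myc had no match. The 250 bases before each start were searched on both strands for the cAMP response element (CRE, TGACGTCA), the AP-1 site (TGANTCA), the EGR site (GCGTGGGCG) and the CArG box, the site of serum response factor. The letters of a CRE do not contain an AP-1 site. Capitals mark CRE and CArG box matches in the following upstream stretches, given 5′ to 3′ on the strand of the gene. The first 3 are the whole 250 bases, from chr1:134079156-134079405 (minus strand), chr17:26508473-26508722 (minus strand) and chr19:53528895-53529144 (plus strand). The others show a match with its flanks, from chr15:79347475-79347514 (Maff, plus strand), chr7:45526269-45526296 (Ppp1r15a, minus strand), chr7:28379261-28379302 (Zfp36, minus strand) and chr10:67537478-67537519 (Egr2, plus strand, upstream of 1 of its listed starts).
Btg2: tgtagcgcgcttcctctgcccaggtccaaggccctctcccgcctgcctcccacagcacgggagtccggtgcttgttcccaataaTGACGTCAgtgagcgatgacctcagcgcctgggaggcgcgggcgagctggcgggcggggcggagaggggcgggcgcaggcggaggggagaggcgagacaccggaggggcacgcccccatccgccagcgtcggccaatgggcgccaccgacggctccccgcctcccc
Dusp1: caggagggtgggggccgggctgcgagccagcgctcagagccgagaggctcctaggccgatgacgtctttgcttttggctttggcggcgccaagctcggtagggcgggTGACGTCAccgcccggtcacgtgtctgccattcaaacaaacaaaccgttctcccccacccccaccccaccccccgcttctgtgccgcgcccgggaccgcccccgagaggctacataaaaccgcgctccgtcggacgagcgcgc
Dusp5: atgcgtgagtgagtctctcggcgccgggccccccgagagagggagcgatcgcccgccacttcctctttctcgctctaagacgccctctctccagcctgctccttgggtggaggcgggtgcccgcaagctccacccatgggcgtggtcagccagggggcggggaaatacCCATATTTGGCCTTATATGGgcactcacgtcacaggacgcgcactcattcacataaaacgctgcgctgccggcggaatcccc
Maff: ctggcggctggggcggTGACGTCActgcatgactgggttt
Ppp1r15a: gaccccgcctctccggTGACGTCAgcac
Zfp36: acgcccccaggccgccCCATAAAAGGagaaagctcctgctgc
Egr2: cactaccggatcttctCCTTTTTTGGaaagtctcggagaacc

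The complete CRE was present in 4 of the 26 genes, Btg2, Dusp1, Maff and Ppp1r15a, and in 1.77% of the 27025 genes with such sequence. It began 166 bases before the start in Btg2, 143 in Dusp1, 29 in Maff and 12 in Ppp1r15a. The log2 ratios of these 4 genes were 1.11, 1.02, 0.78 and 0.57. Of all 35 members, 22 lay above the median gene. Fosb and Jund, which were also past 2-fold, had no match to any of the motifs searched. The CArG box was present in 3 of the 26, Dusp5, Egr2 and Zfp36, and in 1.62% of all genes. Dusp5 held 2 adjoining CArG boxes, which began 82 and 72 bases before the start. The log2 ratios of the 3 genes were -0.34, 0.56 and 0.71. The EGR site was found in Maff, and in 0.622% of all genes. The letters of the AP-1 site were not in the windows of the 26 genes and were in those of 7.82% of all genes. Such matches describe the letters and do not show that a factor binds, and no relation between a motif and the log2 ratio was tested.

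The remaining 6 genes encode secreted, cytoskeletal and signalling proteins of the early response. All 6 had a higher FPKM in the KO library, beside 88.6% of all genes tested. Of these genes, 3 lay above and 3 below the median gene. Their median log2 ratio was 0.52 (0.10 once the median gene was subtracted). Cyr61 and Ctgf, matricellular proteins that are targets of YAP and TEAD as well as of serum response factor, were the most abundant of the 35. Cyr61 was at 346 FPKM in the WT library and 451 FPKM in the KO library, a log2 ratio of 0.38. Ctgf was at 202 and 235 FPKM, a log2 ratio of 0.21. The counting intervals of both, 0.35 to 0.41 and 0.18 to 0.25, lay below the median gene, so both were lower relative to it despite their higher FPKM.

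Sgk1, a serum and glucocorticoid induced kinase, was at 41.6 FPKM in the WT library and 73.4 FPKM in the KO library, a log2 ratio of 0.81. Rhob, an early induced small GTPase of endosomes, was at 75.7 and 117 FPKM, a log2 ratio of 0.62. Both lay above the median gene, by 0.38 and 0.20. Gem, a GTPase that restrains calcium channels, was at 6.98 and 9.65 FPKM, a log2 ratio of 0.42, level with the median gene. Arc, best known from synapses, was at 0.778 FPKM in the WT library and 2.14 FPKM in the KO library. That is 2.74-fold higher, the largest such ratio of the 35, but it rested on an estimated 60 fragments in WT and 138 in KO, and its log2 ratio with the pseudocount was 0.82. Its counting interval was wide, 1.00 to 1.91.

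**Figure D4:**
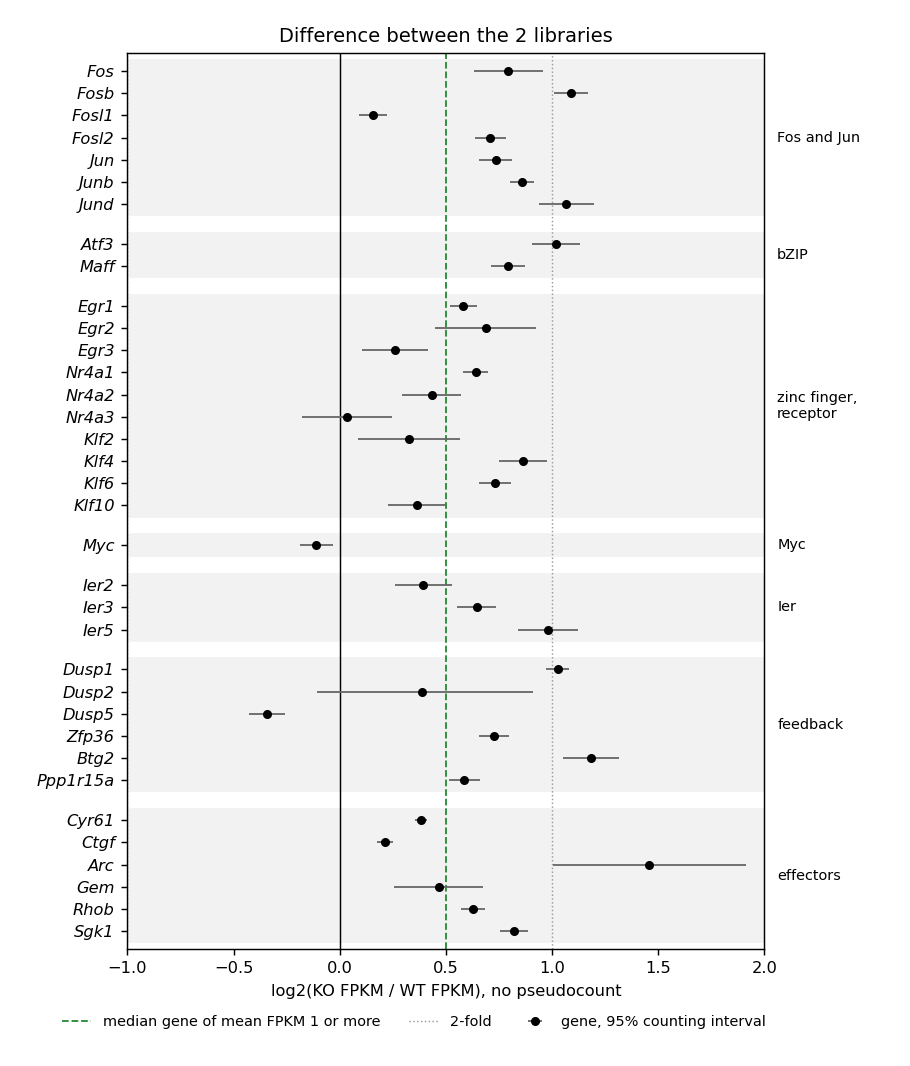
Log2 of the KO to WT ratio of FPKM without a pseudocount (x axis) for each of the 35 genes (y axis, grouped by role), with 95% counting intervals; the green dashed line marks the median gene at 0.50 on this scale and the dotted lines 2-fold. Dusp5 and Myc lie below 0, and the intervals of 21 genes lie wholly above the median gene, a count without a share of all genes beside it.

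Upstream of these genes, the 24 genes of the ERK, JNK and p38 kinases, their downstream kinases, and the SRF and CREB factors with their cofactors lay around the median gene. Of the 23 that passed the filter on mean FPKM, 13 were above it and 10 below, none was 2-fold higher or lower, and the median log2 ratio was 0.47. Map2k2, which encodes the ERK kinase MEK2, was at 31.6 FPKM in the WT library and 60.5 FPKM in the KO library, a log2 ratio of 0.92. Crem, a CREB family gene whose row shares its locus with a predicted gene, was at 2.29 and 4.66 FPKM. Srf, the serum response factor, was at 45.8 and 50.3 FPKM, a log2 ratio of 0.13, and Mkl1, its actin-regulated cofactor whose row shares its locus with Sgsm3, was at 8.10 and 8.72 FPKM. Srf and Mkl1 were thus the lowest of the list, at -0.29 and -0.33 relative to the median gene.

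Among 42 further genes known from early responses, 40 had a mean FPKM of 1 or more. Their median log2 ratio was 0.53 (0.11 once the median gene was subtracted), with 22 above and 18 below it. Only 1 was 2-fold higher in KO, beside 5.06% of all genes tested, and none was 2-fold lower. The higher one was Rgs2, a regulator of G protein signalling, at 1.81 and 4.85 FPKM. Rgs2 was not past 2-fold relative to the median gene, at 0.63. Hbegf, an EGF receptor ligand, was at 21.7 and 42.6 FPKM, a log2 ratio of 0.94. Errfi1, an inhibitor of the EGF receptor, was at 34.8 and 30.0 FPKM, a log2 ratio of -0.21. Il6, an inflammatory cytokine, was at 3.59 and 2.39 FPKM, a log2 ratio of -0.44, and the authors' deposited table lists it as lower.

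Of 12 genes known as AP-1 targets, 1 was at least 2-fold higher in KO, beside 5.06% of all genes tested, and none lower. The median log2 ratio was 0.56 (0.14 once the median gene was subtracted). The higher one was Spp1, which encodes the matrix cytokine osteopontin, at 570 FPKM in the WT library and 1855 FPKM in the KO library, a log2 ratio of 1.70 and of 1.28 relative to the median gene. Mmp10, a stromelysin, was at 0.913 and 2.34 FPKM. Ccnd1, which encodes cyclin D1, was at 70.0 and 64.3 FPKM, and Cd44, the hyaluronan receptor, at 98.7 and 87.4 FPKM. The AP-1 targets thus went in both directions, with 7 above and 5 below the median gene.

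Early response genes and heat shock genes are both known to be induced when tissue is dissociated. Of 10 heat shock genes, none was past 2-fold, 5 lay above and 5 below the median gene, and their median log2 ratio was 0.56. Hspa1a and Hspa1b, inducible HSP70 genes that are near-identical copies and therefore uncertain singly, had log2 ratios of 0.92 and 0.90. Hsp90aa1, the inducible HSP90 gene, was at 218 and 267 FPKM. Hspa8, the constitutive HSC70 gene, was at 904 and 868 FPKM. The part of dissociation in the values of the immediate early genes was not tested.

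Most similar in function are the MAPK feedback genes of the Sprouty, Spred, Dusp and Etv families. Of 14, 12 had a mean FPKM of 1 or more, with a median log2 ratio of 0.48, or 0.06 relative to the median gene. The 2 at least 2-fold higher, beside 5.06% of all genes tested, were Dusp4 and Dusp6, ERK phosphatases of the nucleus and the cytoplasm. Dusp4 was at 6.37 and 14.3 FPKM and Dusp6 at 18.2 and 38.4 FPKM. Neither was past 2-fold relative to the median gene, with Dusp4 at 0.63 and Dusp6 at 0.62. Dusp9, a related ERK phosphatase, was at 9.27 and 7.50 FPKM, a log2 ratio of -0.27, and Spred2, an inhibitor of RAS signalling, at 11.4 and 12.9 FPKM.

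**Figure D5:**
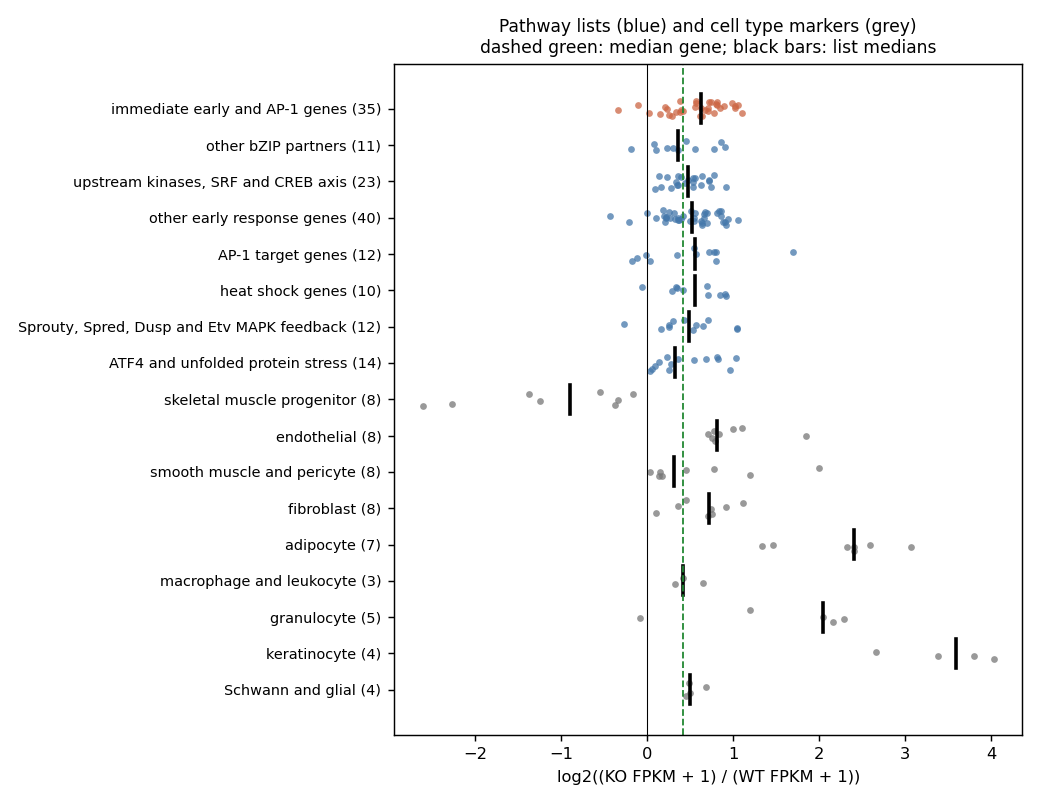
Log2 ratio of KO to WT (x axis) of the genes with a mean FPKM of 1 or more in each list (y axis, number of genes in brackets), with black bars at the list medians and a green dashed line at the median gene (0.42). The immediate early and AP-1 genes (orange) have a median of 0.63, endothelial markers 0.81 and skeletal muscle progenitor markers -0.90.

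Several marker lists had larger median log2 ratios than the immediate early genes. Adipocyte markers had a median log2 ratio of 2.40 and 7 of 7 were 2-fold higher, beside 5.06% of all genes tested. Of 6 keratinocyte markers, 4 had a mean FPKM of 1 or more and all 4 were 2-fold higher. The row of Krt6a, among these 4, shares its locus with other keratin rows. All 6 together summed to 2.80 FPKM in the WT library and 64.9 FPKM in the KO library. Trp63, the factor that defines basal keratinocytes, was at 0.254 and 0.386 FPKM, and Krt15 was lower in KO, at 0.205 and 0.0545 FPKM. Of 5 granulocyte markers, 4 were 2-fold higher, and all 5 together summed to 33.1 and 122 FPKM. The other one, Ltf, was lower in KO, at 9.19 and 8.66 FPKM. Macrophage and leukocyte markers summed to 19.0 and 26.9 FPKM, with Ptprc, Csf1r and Emr1, all under 1 FPKM, lower in KO. Fibroblast markers had a median log2 ratio of 0.72, with 1 of 8 2-fold higher, and smooth muscle and pericyte markers of 0.31. The latter were uneven. Of these 8, 2 were 2-fold higher, Kcnj8 at 4.53 and 21.1 FPKM and Rgs5 at 6.61 and 16.5 FPKM. Pdgfrb and Cspg4 had log2 ratios of 0.78 and 0.45, and Acta2, Tagln, Cnn1 and Myh11 of 0.04 to 0.17. The part of such cells in the values of the 35 genes was not tested.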

How the data were processed

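One polyA RNA-seq library per genotype was compared. Per the file headers, the authors deposited FPKM values of each library and lists of 713 higher and 382 lower genes, each with a fold, the KO over WT ratio of FPKM. The submitters' processing notes list the mm9 build, Cuffdiff (2.1.1), Cufflinks (2.1.1) and TopHat2 (2.0.9). The sources used here give neither their roles, nor the rule behind the lists, nor any scaling between the libraries.

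Rows of a repeated symbol were summed, a pseudocount of 1 was added, and a 2-fold limit was applied to genes whose mean FPKM reached 1. Values of 0.001 FPKM were read as not detected. Depth was estimated as the value at which FPKM times transcript length (GENCODE M21) fell nearest to whole numbers in low genes; the mean cosine was 0.319 in WT and 0.352 in KO, where a perfect fit gives 1, so the counting intervals are approximate, and they hold only if no scaling factor was applied. The functions were tested on simulated data.

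Starts in the deposited table were taken as zero-based and shifted by 1, because the difference of end and start matched RefSeq gene lengths in 7162 of 20652 loci and was 1 short in 455.

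The members, lists and alternatives were chosen with earlier results of these data known. All members were named, and of each pathway list the 2 highest and 2 lowest genes. One gene of the marker lists is not reported here and was left out of its list. Cell type markers, Atf4, Ccdc85b and Sgsm3 were named outside that rule after their values were seen. Computation used matplotlib 3.10.9, scipy 1.17.1, pandas 2.3.3 and numpy 2.4.6 under Python 3.11.15.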

Additional observations from a re-analysis of the deposited data

How the results depend on the processing

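Both the scaling between the libraries and the fold limit moved the count of higher members. Relative to the median gene, the members' median log2 ratio was 0.21 in place of 0.63 and the number at least 2-fold higher was 0 in place of 4. With upper-quartile scaling these were 0.14 and 0. In alternatives added after the data were seen, they were 0.14 and 0 without a pseudocount and relative to the median gene, and 0.16 and 0 relative to the median of genes with a mean FPKM of 5 or more. With a 1.5-fold limit 19 members were higher, beside 30% of all genes. Pseudocounts of 0.1 and 0.5 and no pseudocount gave 6 higher members. With no filter or a mean FPKM of 5, and without Klf2 and Klf4, without Cyr61 and Ctgf or, added later, without Fosl1, 4 were higher; the authors' deposited lists gave 3. The number of members 2-fold lower was 0 under each of these. Of the 35 single members, 11 (31.4%) changed sign relative to the median gene and 11 with upper-quartile scaling, where 38.6% and 38.9% of all genes did. Under both scalings no further early response gene, MAPK feedback gene or ATF4 and unfolded protein gene was 2-fold higher, and 1 AP-1 target was. No paired analysis was possible because each genotype had 1 library. The depth limits Arc and Dusp2 most, with an estimated 60 and 64 fragments in WT.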

Other observations

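The integrated stress response shares Atf3 and Ppp1r15a with the immediate early genes. All 14 genes listed for the ATF4 and unfolded protein responses had a mean FPKM of 1 or more. Of these, 1 was at least 2-fold higher in KO, beside 5.06% of all genes tested, and none lower. None was past it relative to the median gene, where the highest, Xbp1, stood at 0.62. The median log2 ratio of the 14 was 0.32, and 6 lay above and 8 below the median gene. Xbp1, a transcription factor of the unfolded protein response, was at 28.4 FPKM in the WT library and 59.4 FPKM in the KO library, and Hspa5, the chaperone BiP, at 164 and 320 FPKM. Psat1 and Phgdh, enzymes of serine synthesis and targets of ATF4, were at 63.0 and 65.5 FPKM and at 77.8 and 79.8 FPKM. Atf4 itself was at 238 and 279 FPKM, a log2 ratio of 0.23.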
